A study of Mus musculus with 30 samples.

Results

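Ucp1, Cidea, Ppargc1a, Prdm16, Dio2 and Elovl3, 6 genes of the thermogenic programme of brown fat, were followed across the aortae and kidneys of mice with and without the EGF receptor (EGFR) in vascular smooth muscle. They were taken by symbol from the deposited count tables, and all 6 were found among the 41128 genes listed for each tissue. The study asked how a high-fat diet (HFD) alters vessels and kidneys, and whether EGFR in smooth muscle takes part. Each library was made from 1 male mouse on a C57BL/6 background. KO mice carried floxed Egfr and a tamoxifen-inducible Cre recombinase driven by the Smmhc promoter, which is active in smooth muscle cells. In WT mice this Cre was present but Egfr had no loxP sites. All mice, WT included, received tamoxifen at 1 mg per day for 5 days. The diet began 7 days later, at 6 weeks of age, and lasted 18 weeks, as HFD or as standard diet (SFD). The aortae were 3 WT-SFD, 4 WT-HFD, 3 KO-SFD and 4 KO-HFD, and the kidneys were 4 in each of the same groups. Libraries are named by group and mouse number. The organs were freed of adjacent tissue before freezing.

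Brown adipocytes burn fatty acids to make heat. Noradrenaline acts on beta-adrenergic receptors, cyclic AMP rises, lipolysis releases fatty acids, and these open UCP1, a protein of the inner mitochondrial membrane that lets protons return without making ATP. The fat around the rodent thoracic aorta resembles brown fat, and a wall dissected from it can carry some of it along. PRDM16 and PGC-1alpha (Ppargc1a) are transcriptional regulators of this programme, but both are also made outside fat: Prdm16 in endothelium and smooth muscle of arteries, Ppargc1a wherever mitochondria are abundant, as in the renal tubule. DIO2 converts thyroxine to the active hormone triiodothyronine, CIDEA sits on lipid droplets, and ELOVL3 lengthens fatty acids.

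Because the members were compared for whether they moved together, the DNA just upstream of the start site is shown for the uncoupler, for the coactivator and for the deiodinase. The table of RefSeq start-site windows used here, in the build GRCm38.p6, matched 4 of the 6 members (Ucp1, Ppargc1a, Prdm16 and Dio2), and none was used for Cidea and Elovl3. The stretches are the 250 bases before the RefSeq start at chr8:83290098-83290347 (Ucp1, plus strand), chr5:51567726-51567975 (Ppargc1a, minus strand) and chr12:90739039-90739288 (Dio2, minus strand). They read 5′ to 3′ along the gene, and capitals mark TGACG, the core of the cyclic AMP response element, AGGTCA, a nuclear receptor motif, and TATAAA, on either strand.
Ucp1: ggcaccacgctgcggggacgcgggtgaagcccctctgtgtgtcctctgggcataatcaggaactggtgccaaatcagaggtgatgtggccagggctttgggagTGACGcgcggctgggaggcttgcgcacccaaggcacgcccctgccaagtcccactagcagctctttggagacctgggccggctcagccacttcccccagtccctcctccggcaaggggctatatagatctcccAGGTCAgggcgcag
Ppargc1a: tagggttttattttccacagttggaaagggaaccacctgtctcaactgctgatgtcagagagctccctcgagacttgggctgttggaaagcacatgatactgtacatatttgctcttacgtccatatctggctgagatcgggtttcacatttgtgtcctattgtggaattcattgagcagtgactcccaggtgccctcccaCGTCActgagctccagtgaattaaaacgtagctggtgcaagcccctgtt
Dio2: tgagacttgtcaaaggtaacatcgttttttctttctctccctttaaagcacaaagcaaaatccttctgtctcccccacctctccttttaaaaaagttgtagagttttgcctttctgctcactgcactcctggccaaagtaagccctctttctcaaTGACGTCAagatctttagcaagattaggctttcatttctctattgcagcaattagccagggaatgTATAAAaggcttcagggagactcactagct

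The Ucp1 stretch held TGACG at -147 to -143 and AGGTCA at -14 to -9, counted with the base just before the start as -1. The Ppargc1a stretch held TGACG on the opposite strand at -49 to -45. In Dio2 the whole palindrome TGACGTCA lay at -95 to -88, which contains TGACG on both strands, and TATAAA lay at -30 to -25. Prdm16 (window chr4:154636824-154637123, minus strand) held none of these motifs. Over all 32851 RefSeq windows of 300 bases (250 before and 50 after a start), searched on both strands, TGACG was found in 20.8%, AGGTCA in 16.3%, TATAAA in 13.6% and TGACGTCA in 1.79%. The longer motifs TCAAGGTCA and AGGTCANAGGTCA, which contain AGGTCA, occurred in 0.423% and 0.0396% of windows and in none of the 4 members. A match describes letters and does not show a bound site. The RefSeq start of Dio2 lies 600 bases upstream of the gene start in the annotation used for positions.

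In GENCODE vM21 on GRCm38, Ucp1 (ENSMUSG00000031710) lies at chr8:83290352-83298452 and Elovl3 (ENSMUSG00000038754) at chr19:46131897-46135694, both on the plus strand. Ppargc1a (ENSMUSG00000029167) lies at chr5:51454250-51567726, Prdm16 (ENSMUSG00000039410) at chr4:154316125-154636873 and Dio2 (ENSMUSG00000007682) at chr12:90724552-90738438, all on the minus strand. Cidea (ENSMUSG00000024526) is on chromosome 18. Prdm16 shares 109 exon bases with the opposite-strand transcript B230104I21Rik, Dio2 shares 100 with Gm26512 and Elovl3 shares 10 with Pitx3. Whether the counting used strand is not given in the sources used here, so reads in these short overlaps could not be assigned with certainty. The partners held 341, 41 and 12 counts over all aortae, against 19790, 4119 and 503 for the members.

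The 14 aorta libraries held 6403699 to 13052870 counted reads (median 8998366), and the 16 kidney libraries 16354880 to 28331314 (median 19544128). Levels are given as FPM, counts per 1000000 counts of the library after scaling its total by edgeR's TMM factor. A count of 0 allowed up to 3 counts, or 0.239 to 0.432 FPM in the aorta and 0.103 to 0.190 FPM in the kidney (counting error only). Egfr, the targeted gene, was at 46.6, 39.4 and 54.2 FPM in WT-SFD aortae and at 64.9, 56.9, 51.1 and 56.9 in WT-HFD. It was at 26.7, 35.5 and 28.0 FPM in KO-SFD and at 27.5, 40.5, 39.6 and 33.3 in KO-HFD, so genotypes did not overlap within a diet. The KO minus WT difference in log2 was -0.64 (SE 0.166) on SFD and -0.70 (SE 0.142) on HFD, with edgeR adjusted p = 0.531 and 0.130 over all genes. In the kidney, where smooth muscle is a small share of the cells, Egfr ranged from 36.9 to 60.7 FPM in all groups.

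Some aortae stood apart in the markers of fat. The summed level of 16 adipocyte markers was 7728 and 5891 FPM in WT-SFD-1309 and WT-SFD-1310 and 4964 and 1759 FPM in KO-SFD-1319 and KO-SFD-1452. In the other 10 aortae it ran from 539 to 843 FPM, including WT-SFD-1445 at 643 FPM and KO-SFD-1507 at 601 FPM. No HFD aorta was above 843 FPM. All 16 markers had counts, and the most abundant on average was Plin4, which coats lipid droplets and was at 318 FPM or more in every aorta. Adipoq, the gene of the adipocyte hormone adiponectin, was at 195, 148, 111 and 47.7 FPM in WT-SFD-1309, WT-SFD-1310, KO-SFD-1319 and KO-SFD-1452 and at 1.36 to 14.8 FPM in the other 10.

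Some markers of other tissues were also high in single aortae. Skeletal muscle markers summed to 473 FPM in WT-SFD-1310, against 22.7 to 88.3 FPM in the other aortae. Of the 473 FPM, Ttn held 435 FPM, so the high sum came mostly from that gene. Neb and Myl1, the next most abundant skeletal markers on average, were at most 11.8 and 14.8 FPM in any aorta. Cardiac markers summed to 648 FPM in the same mouse, against 99.5 to 207 FPM in the others. Adrenal markers summed to 51.1 FPM in WT-SFD-1309 and to at most 12.8 FPM in the others. Nearly all of the 51.1 FPM came from Dbh (35.1 FPM) and Th (15.8 FPM), so the rest of the adrenal list was close to absent there. The summed smooth muscle markers were lower in WT-SFD-1309, WT-SFD-1310 and KO-SFD-1319 (9959, 12303 and 10719 FPM) than in the remaining 11 aortae (14870 to 17935 FPM). The diet differences of the members are therefore given with and without the 4 libraries richest in adipocyte markers, while counts over gene lists are from all aortae. In bulk tissue, fewer cells of a type and less RNA per cell cannot be told apart.

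Ucp1, the uncoupler itself, was high in the same 4 aortae. It was at 579, 256 and 3.03 FPM in WT-SFD-1309, WT-SFD-1310 and WT-SFD-1445, and at 193 FPM in KO-SFD-1319, 73.1 FPM in KO-SFD-1452 and 0.543 FPM in KO-SFD-1507. In WT-HFD-1442, WT-HFD-1443, WT-HFD-1447 and WT-HFD-1448 it was at 3.97, 12.5, 21.2 and 27.4 FPM, and in KO-HFD-1454, KO-HFD-1503, KO-HFD-1504 and KO-HFD-1505 at 6.47, 15.9, 18.2 and 1.5 FPM. The highest aorta was 1066-fold above the lowest, and both belonged to SFD groups. The lowest SFD aorta of each genotype fell below every HFD aorta of that genotype, so diets overlapped in both. The counts behind the extremes were 4251 reads in WT-SFD-1309 and 6 reads in KO-SFD-1507. Group means followed the order WT-SFD (279 FPM ± 289, SD, n = 3), KO-SFD (88.9 ± 97.3, n = 3), WT-HFD (16.3 ± 10.2, n = 4) and KO-HFD (10.5 ± 7.88, n = 4), and no neighbours in this order differed by more than the larger of their SDs.

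**Figure D1:**
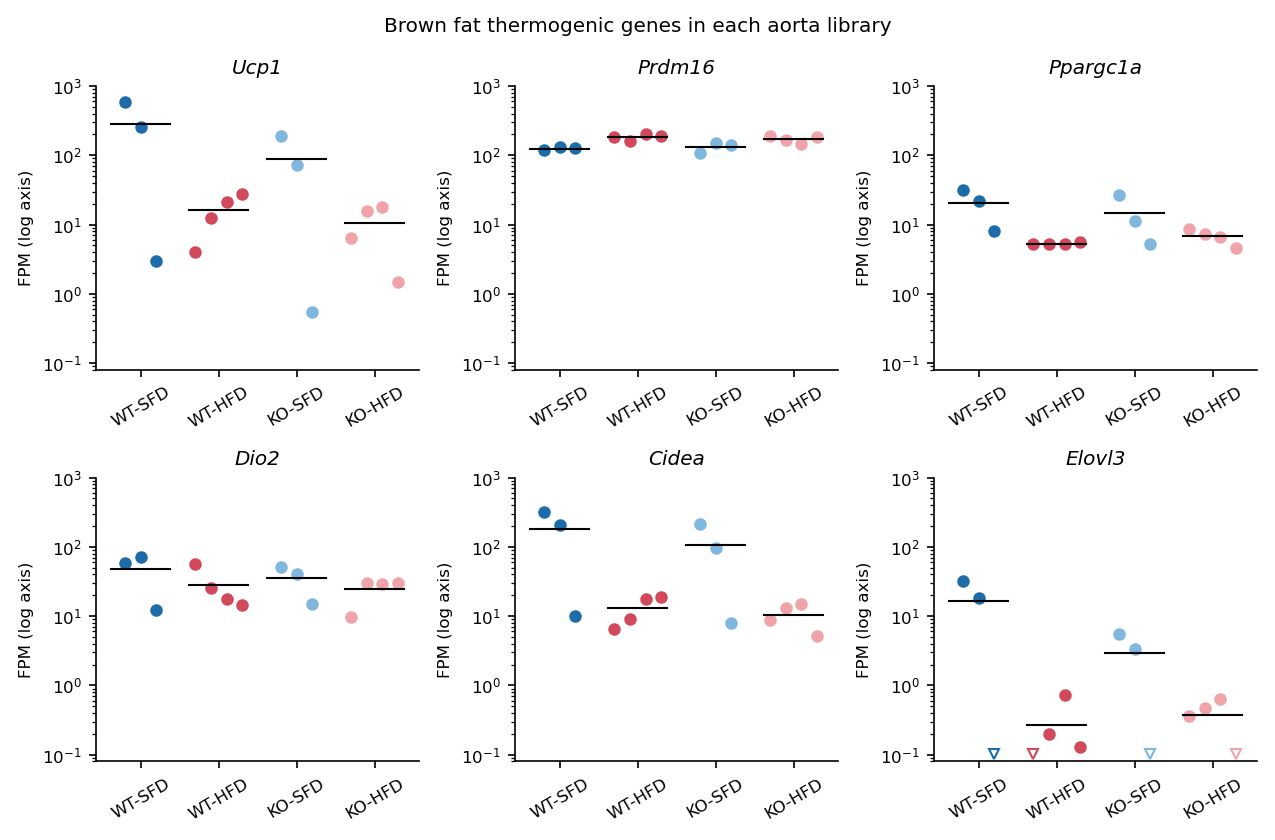
Level of each of the 6 genes in the 14 aortae, in FPM on a log10 axis, by group. Each point is 1 mouse, the black line is the group mean and an open triangle is a count of 0. Ucp1 and Cidea are far higher in a pair of mice of each SFD group than in the rest, while Prdm16 stays between 107 and 204 FPM.

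Cidea, the lipid droplet protein, followed Ucp1 over a narrower range. With the mice of each group in the order used for Ucp1, as for the genes that follow, it was at 317, 208 and 10.2 FPM in WT-SFD, and at 210, 95.8 and 7.96 FPM in KO-SFD. In WT-HFD it was at 6.41, 9.13, 17.4 and 19.0 FPM, and in KO-HFD at 8.66, 13.2, 14.8 and 5.19 FPM. The 4 aortae highest for Cidea were the 4 highest for Ucp1, and the third aorta of each SFD group lay within the HFD range. The ratio of Ucp1 to Cidea was not fixed: it was 1.83 and 1.23 in WT-SFD-1309 and WT-SFD-1310, 0.919 and 0.763 in KO-SFD-1319 and KO-SFD-1452, and 0.0682 in KO-SFD-1507, where 6 reads fell on Ucp1 and 88 on Cidea. Among HFD aortae the ratio ran from 0.289 to 1.44.

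Elovl3, the elongase, was above 0.728 FPM only in those 4 aortae. It had 233, 178 and 0 counts in WT-SFD (31.7, 18.2 and 0 FPM) and 42, 24 and 0 counts in KO-SFD (5.61, 3.34 and 0 FPM). In WT-HFD it had 0, 2, 7 and 1 counts and in KO-HFD 3, 5, 8 and 0 counts. No HFD aorta exceeded 0.728 FPM, while the third SFD aorta of each genotype had no read. Among the SFD aortae with reads, both WT values were above both KO values.

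Prdm16 did not share the 4 high aortae, whereas Ppargc1a did. Prdm16, which keeps precursors on the brown fate, was at 118, 130 and 127 FPM in WT-SFD and at 107, 150 and 142 FPM in KO-SFD. In WT-HFD it was at 181, 161, 204 and 190 FPM, and in KO-HFD at 191, 166, 144 and 185 FPM. In WT every HFD aorta was above every SFD aorta, whereas in KO the groups overlapped between 144 and 150 FPM. The lowest levels, 107 and 118 FPM, were in KO-SFD-1319 and WT-SFD-1309, each the aorta richest in adipocyte markers of its genotype. Across all 14 aortae its highest level was 1.91-fold its lowest.

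Ppargc1a, the coactivator that drives mitochondrial genes, was at 31.1, 22.1 and 8.21 FPM in WT-SFD and at 27.1, 11.4 and 5.25 FPM in KO-SFD. In WT-HFD it was at 5.19, 5.22, 5.20 and 5.61 FPM, and in KO-HFD at 8.54, 7.40, 6.71 and 4.64 FPM. The WT groups did not overlap and the 4 WT-HFD aortae lay between 5.19 and 5.61 FPM, while the KO groups overlapped. Its 4 highest aortae were again WT-SFD-1309, WT-SFD-1310, KO-SFD-1319 and KO-SFD-1452. Dio2, the deiodinase, was at 58.7, 71.6 and 12.1 FPM in WT-SFD, at 50.5, 40.2 and 14.8 FPM in KO-SFD, at 56.1, 25.3, 17.4 and 14.7 FPM in WT-HFD and at 9.64, 29.7, 29.5 and 30.3 FPM in KO-HFD. WT-HFD-1442 thus reached the Dio2 level of the fat-rich SFD aortae with 3.97 FPM of Ucp1 and 599 FPM of adipocyte markers. Diets overlapped for Dio2 in both genotypes.

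Per kilobase of transcript, the scale on which genes can be compared, the median aorta held 16.6 FPM per kb of Prdm16, 12.6 of Cidea, 10.4 of Ucp1, 5.10 of Dio2, 1.07 of Ppargc1a and 0.211 of Elovl3. At their highest, Ucp1 reached 354 FPM per kb, Cidea 284, Prdm16 21.9, Elovl3 16.1, Dio2 12.3 and Ppargc1a 4.71. Prdm16 was therefore the most abundant member in the median aorta, and Ucp1 in the richest one.

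The levels were also set against the adipocyte markers, and the outcome for Ucp1, Cidea and Elovl3 depended on which markers were used. Ucp1 per 1000 FPM of adipocyte markers was 74.9, 43.4, 38.9 and 41.6 in the 4 rich aortae and 0.902 to 35.6 in the other 10. Cidea on this scale was 41.0, 35.4, 42.2 and 54.4 in the 4 and 9.62 to 24.7 in the others. Elovl3 was at 1.13 to 4.11 in the 4 and at most 0.978 elsewhere. Ppargc1a, in contrast, was at 3.75 to 6.48 in the 4, and none of these was among its 4 highest values on this scale. The same held for Dio2, at 7.60 to 22.8 in the 4 and 15.3 to 93.6 in the others, and for Prdm16. The sum includes Plin4, which ranged only from 318 to 644 FPM over the aortae, while Adipoq ranged from 1.36 to 195 FPM. As a ratio to Adipoq alone, a scale added after the data were seen, Ucp1 was at 1.53 to 2.97 in the 4 and 0.111 to 3.3 in the others, and 1 of the 4 was among its 4 highest. Cidea was at 1.41 to 2.01 in the 4 and 0.75 to 3.82 in the others on that scale, so both genes overlapped fully with the other aortae. Elovl3 overlapped too, at 0.0505 to 0.163 against 0 to 0.125, while the 4 were below every other aorta for Ppargc1a, Dio2 and Prdm16.

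**Figure D2:**
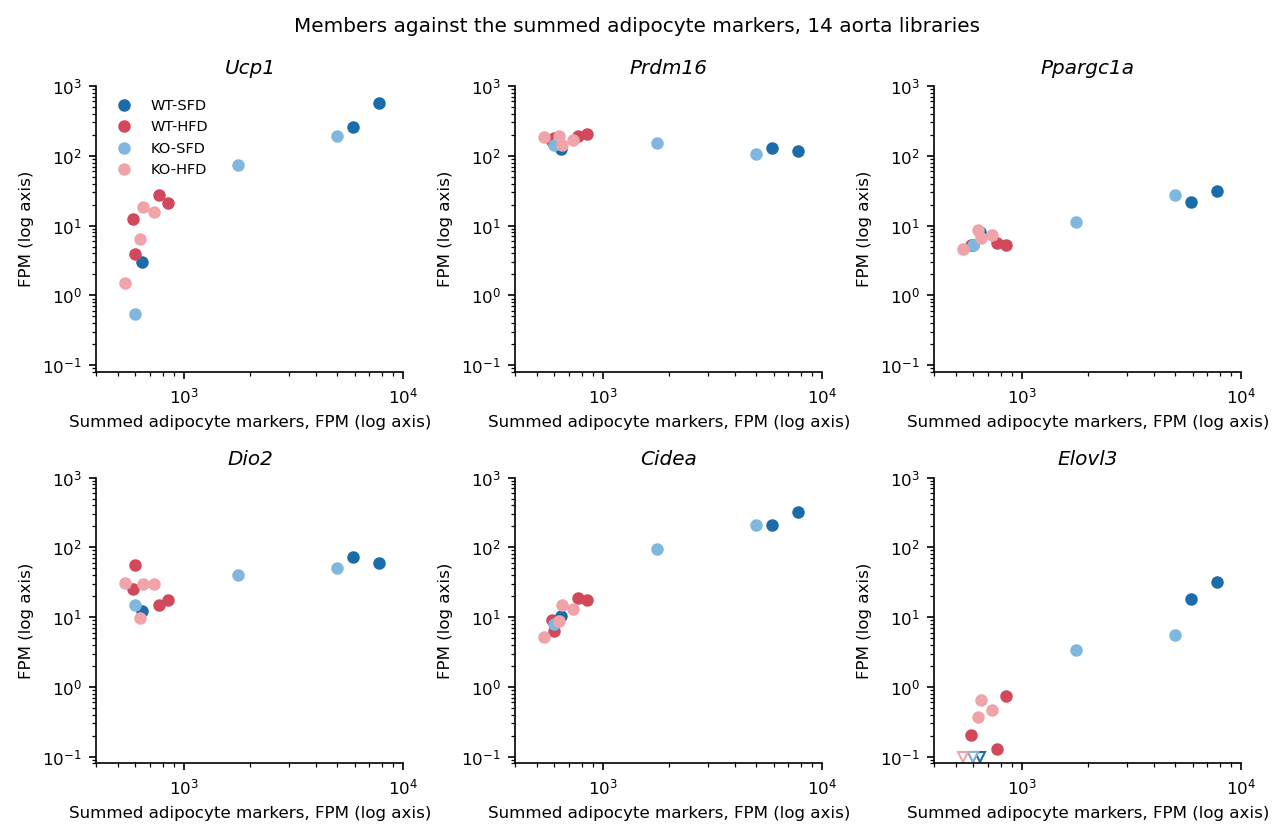
Level of each member (FPM, log10 axis) against the summed adipocyte markers (FPM, log10 axis) in the 14 aortae, coloured by group; each point is 1 mouse. Ucp1, Cidea and Elovl3 are highest in the 4 aortae with 1759 to 7728 FPM of markers, and Dio2 also reaches 56.1 FPM in a WT-HFD aorta with 599 FPM.

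The first comparison asked what the diet did in WT aortae. On edgeR's quasi-likelihood test over 14796 genes, none of the 6 members and no gene at all (0%) passed an adjusted p of 0.05. At an unadjusted p below 0.05, 5 of the 6 members passed, against 17.0% of all genes tested, and 4 of the 6 were lower on HFD, against 11.3%. The log2 differences, HFD minus SFD, were -4.11 (SE 1.31) for Ucp1, -3.79 (SE 0.930) for Cidea, -5.89 (SE 1.20) for Elovl3, -1.95 (SE 0.458) for Ppargc1a and -0.75 (SE 0.573) for Dio2. Prdm16 went the other way at 0.56 (SE 0.131). The edgeR adjusted p was 0.117 for Ucp1, 0.0683 for Cidea, 0.0673 for Elovl3, Ppargc1a and Prdm16, and 0.550 for Dio2. Groups did not overlap for Prdm16, higher in all HFD aortae as were 4.42% of genes, and for Ppargc1a, lower in all as were 4.54%. DESeq2 called 4 of the 6, Cidea (adjusted p = 0.0126), Ppargc1a (0.00547), Prdm16 (0.00891) and Elovl3 (0.0413), among 666 genes, while limma voom called 0 members and 0 genes. Elovl3 passed the filter on low counts only through the rich SFD aortae and was not tested without them, so its difference and its place in these counts rest on that filter and do not count as support. Of the other 5 members, 4 passed an unadjusted p of 0.05 and 3 of these were lower on HFD. The median log2 difference over those 5 was -1.95, against -0.0117 over all genes.

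In KO aortae the same comparison gave smaller differences for all 6 members. Elovl3 again rested on the filter and does not count as support. Ucp1, Cidea, Ppargc1a and Elovl3 were highest in the same 4 aortae, so the 6 are not separate observations. No member and no gene (0%) passed an adjusted p of 0.05 with edgeR. At an unadjusted p below 0.05, 4 members passed (7.85% of all genes), 3 of them lower on HFD (5.11%). The log2 differences were -3.04 (SE 1.28) for Ucp1, -3.29 (SE 0.920) for Cidea, -2.74 (SE 1.32) for Elovl3, -1.07 (SE 0.455) for Ppargc1a, -0.49 (SE 0.579) for Dio2 and 0.36 (SE 0.130) for Prdm16, with edgeR adjusted p from 0.526 to 0.855. DESeq2 called 0 members and 8 genes, and limma voom 0 of each. At an unadjusted p of 0.05 edgeR counted 1 member without KO-SFD-1319 (466 of 15226 genes) and 2 without KO-HFD-1505 (826 of 14777 genes). Whether the diet effect differed between genotypes was tested as an interaction: the differences were 1.07 (SE 1.77) for Ucp1, 0.50 (SE 1.26) for Cidea, 3.15 (SE 2.14) for Elovl3, 0.88 (SE 0.649) for Ppargc1a, 0.25 (SE 0.820) for Dio2 and -0.19 (SE 0.183) for Prdm16. None of the 6 passed at an adjusted p of 0.05 (0% of genes) or at an unadjusted p of 0.05 (4.37% of genes) with edgeR.

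The diet differences rested on which SFD aortae were kept. Without WT-SFD-1445 and KO-SFD-1507, the SFD aortae poor in adipocyte markers, the HFD minus SFD difference of Ucp1 was -4.64 in log2 in WT (SE 0.655) and -3.61 in KO. Both were also the SFD aortae lowest in their genotype for every member but Prdm16 and were picked after the data were seen, so leaving them out selects on the outcome. The edgeR calls that follow, 5 of 6 members in WT among 2111 genes and 4 of 6 in KO among 636, are a description of that choice and not a test. Single libraries were enough to alter the WT calls: without WT-SFD-1445 edgeR called 5 members among 1907 genes, without KO-SFD-1319 it called 4 among 630, and without KO-SFD-1507 it called 4 among 438. The last 2 are KO aortae, so their removal left the WT libraries as they were but changed the shared fit and the genes that passed the filter, from 14796 to 15226 and 15291. Which of these moved the calls was not tested. Leaving out any other single aorta gave no call of a member or gene for the WT diet. The 4 rich aortae were all SFD and were the 4 highest of all aortae for Ucp1, Cidea, Ppargc1a and Elovl3. They were also picked after the data were seen, so leaving them out selects on the outcome too, and the values are a description. It left 1 SFD mouse per genotype and assumed that this mouse varied like the other groups. Without the 4 rich aortae Ucp1 was higher on HFD, at 2.41 in log2 (SE 1.16) in WT and 4.30 (SE 1.48) in KO. Cidea then differed by 0.34 in WT and 0.43 in KO, and Dio2 by 1.24 and 0.75, while Elovl3 could not be tested. Prdm16 kept its direction in both settings, at 0.54 to 0.61 in WT and 0.27 to 0.40 in KO. In these 2 settings Ppargc1a differed by -2.28 and -0.63 in WT and by -1.50 and 0.39 in KO.

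With the mean adipocyte marker level as a covariate over all 14 aortae, the diet difference was 1.86 (SE 0.631) for Ucp1 and -0.14 for Cidea in WT, with 2.01 (SE 0.571) and -0.08 in KO. The edgeR adjusted p for Ucp1 was then 0.628 and 0.987. Prdm16 differed by 0.47 in WT and 0.28 in KO under this fit, Dio2 by 0.65 and 0.58, Elovl3 by -0.81 and 1.36, and Ppargc1a by -0.63 and 0.14. The covariate was not independent of diet or of Ucp1. It was 2.58 to 4.42 (mean log2 level) in the HFD aortae, 5.79 to 8.11 in the 4 rich SFD aortae, and 3.47 and 3.26 in WT-SFD-1445 and KO-SFD-1507. Its markers include Gpd1, Adrb3 and Plin1, which are among the 10 genes nearest to Ucp1 in the aorta. This fit therefore cannot separate diet from the marker level. Whether fat left on the vessel took part in the diet differences was not tested.

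**Figure D3:**
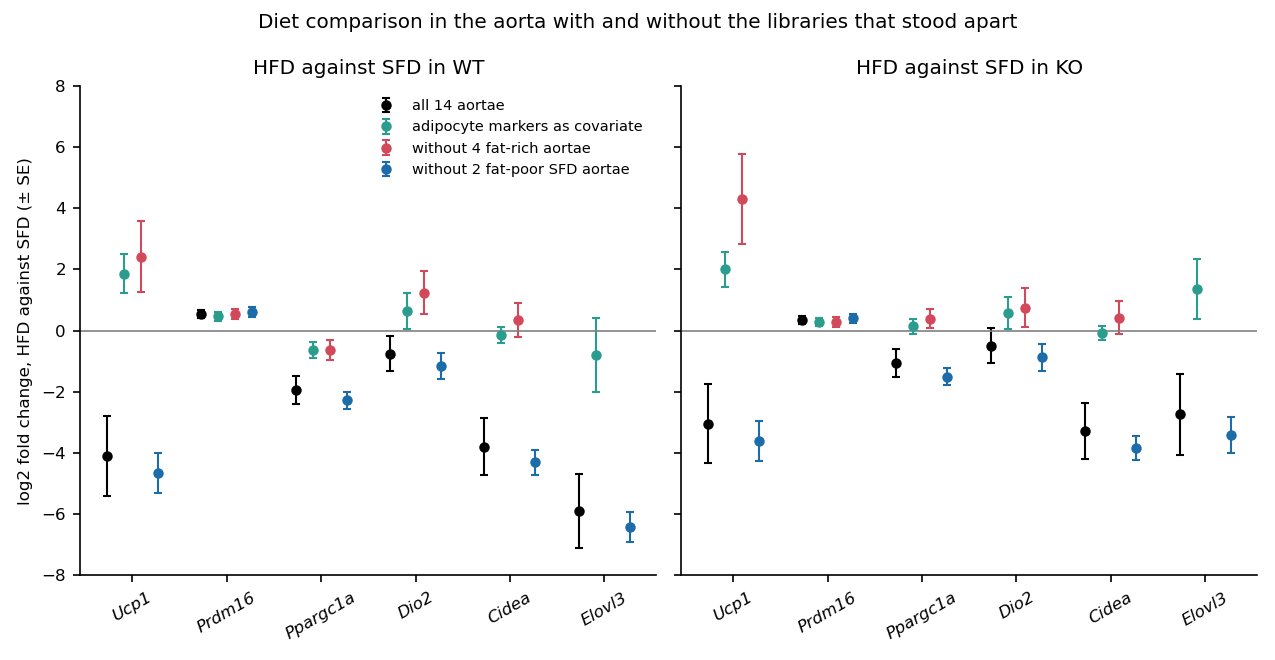
Log2 difference of HFD minus SFD (edgeR, bars are ± 1 SE) for each member and genotype, with all aortae, without the 4 rich in adipocyte markers, without the 2 SFD aortae poor in them and with the markers as a covariate. The Ucp1 difference spans -4.64 to 2.41 (WT) and -3.61 to 4.30 (KO), while Prdm16 stays above 0.

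The genotype comparison on SFD gave 1 member at an unadjusted p below 0.05 (6.54% of genes) and none at an adjusted p of 0.05 (0.0811% of genes, or 12) with edgeR, and 0 at either limit with DESeq2 or limma voom. That member was Elovl3, with a KO minus WT difference of -2.58 in log2 (SE 0.980, edgeR adjusted p = 0.708). Elovl3 passed the filter on low counts only through the rich SFD aortae, so its place in this count does not count as support. Without WT-SFD-1445, in which Elovl3 had 0 counts, its difference was -3.16 (edgeR adjusted p = 0.0487), a description that does not count as support either. At an unadjusted p of 0.05 edgeR counted 2 members without KO-SFD-1319, where 1817 of 15226 genes passed. It counted 0 without WT-SFD-1309 (783 of 15244 genes) or KO-SFD-1507 (780 of 15291 genes). Ucp1 differed by -1.66 (SE 1.32), Cidea by -0.78 (SE 0.923), Ppargc1a by -0.51 (SE 0.472), Dio2 by -0.44 (SE 0.618) and Prdm16 by 0.09 (SE 0.139). Without WT-SFD-1445 and KO-SFD-1507, in both of which Elovl3 had 0 counts, Elovl3 differed by -2.42 (SE 0.444) and Ucp1 by -1.6 (SE 0.751), again as a description only. Without the 4 rich aortae, which left 1 mouse on each side, Ucp1 differed by -2.45 (SE 2.02) and Cidea by -0.36 (SE 0.705), and Elovl3 was not tested. The adipocyte markers moved with these genes: all 16 were lower in KO-SFD, with a median of -1.1, and none passed an unadjusted p of 0.05. With their mean level as a covariate no member passed an unadjusted p of 0.05, and the KO minus WT difference was 0.32 for Ucp1, 0.41 for Cidea, 0.08 for Dio2, -0.78 for Elovl3, -0.12 for Ppargc1a and 0.05 for Prdm16. Other markers moved on SFD as well. All 6 leucocyte markers tested were higher in KO, 4 of them at an unadjusted edgeR p below 0.05, with a median of 0.97, and all 6 cardiac markers were lower, 2 of them at that limit, with a median of -1.94. The part of the leucocyte and cardiac markers was not tested. On HFD no member passed at an adjusted p of 0.05 (0.0811% of genes) or an unadjusted p of 0.05 (5.35%) with edgeR. The HFD differences were -0.59 (SE 1.20) for Ucp1, -0.28 (SE 0.862) for Cidea, 0.37 (SE 0.446) for Ppargc1a, -0.10 (SE 0.120) for Prdm16, -0.19 (SE 0.539) for Dio2 and 0.58 (SE 1.85) for Elovl3. The genotype and diet comparisons share groups, so their values are not independent.

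Mice of the same group differed widely in Ucp1, Elovl3 and Cidea, and little in Prdm16. In the aorta the SD of log2 FPM within groups was 2.84 for Ucp1, rank 1 of the 14796 genes, 2.2 for Elovl3 (rank 8) and 1.71 for Cidea (rank 49). Dio2 followed at 0.987 (rank 460) and Ppargc1a at 0.709 (rank 1407), while Prdm16, at 0.176 (rank 11612), was below the median gene at 0.296. In the kidney Ucp1 at 3.28 and Cidea at 3.21 were ranks 1 and 2 of 15034 genes, Dio2 at 1.49 was rank 69, and Prdm16 (0.314) and Ppargc1a (0.304) lay near the median gene at 0.243. Ranks depend on the prior count of 2 added before the log. With 0.5 instead, the aorta ranks were 5 for Ucp1, 2 for Elovl3, 118 for Cidea and 844 for Dio2.

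**Figure D4:**
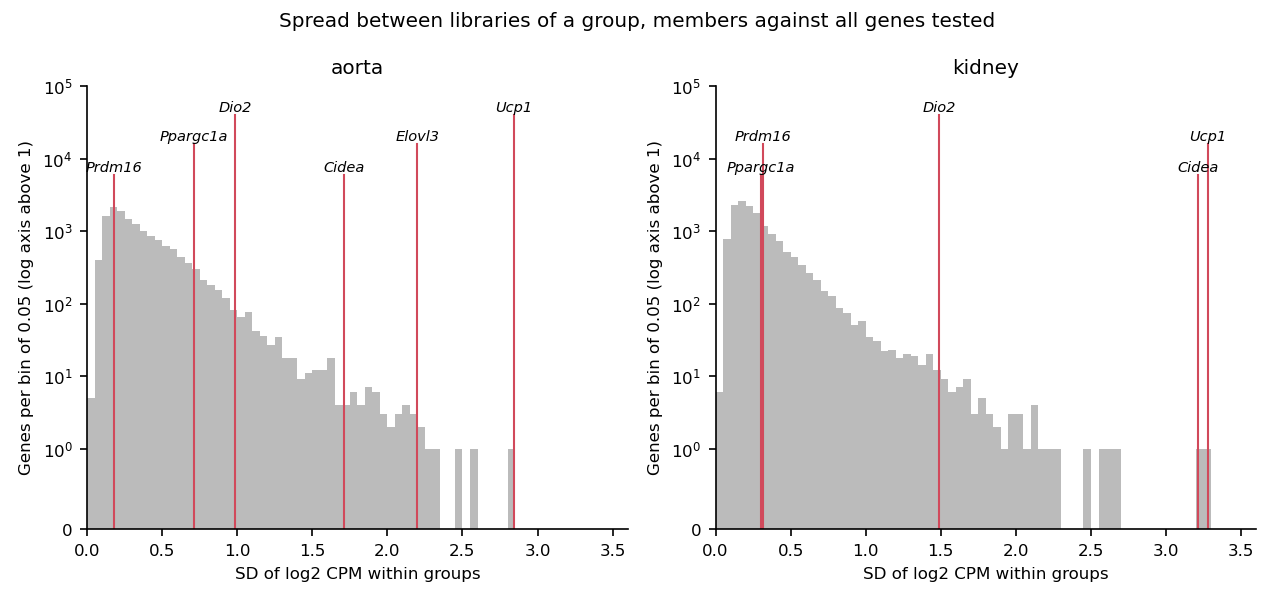
Distribution over all tested genes of the SD of log2 FPM among mice of a group, in aorta and kidney, with the members marked. The x axis is the SD in log2 units and the y axis the number of genes. Ucp1 is at 2.84 in the aorta and 3.28 in the kidney, and Prdm16 is at 0.176 and 0.314.

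The genes whose aortic pattern was nearest to Ucp1, by the root mean square distance of centred log2 levels over 14 aortae, were Gpd1 (0.785), Cox8b (0.811), Slc27a2 (0.845), Pck1 (0.889), Elovl3 (1.00), Adrb3 (1.02), Nat8l (1.07), Otop1 and Clstn3 (both 1.09) and Plin1 (1.1). Gpd1 makes glycerol phosphate, Cox8b is a subunit of cytochrome oxidase, Slc27a2 imports fatty acids, Pck1 serves glyceroneogenesis, Adrb3 is the adipocyte beta-3 receptor and Plin1 coats the lipid droplet. Cidea was at rank 12, Ppargc1a at 299, Dio2 at 698 and Prdm16 at 12324 among the tested genes.

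The pathway around the members was described by lists of its genes, with counts at an unadjusted edgeR p below 0.05 for HFD against SFD, since no gene of any list passed an adjusted p of 0.05. The backgrounds are the 11.3% of genes lower in WT and the 5.11% lower in KO. Of 15 genes of beta-adrenergic and cyclic AMP signalling, 7 were lower in WT and 3 in KO, with medians of -0.30 and -0.17. Adrb3 was at -3.95 (SE 1.02, edgeR adjusted p = 0.0711) in WT, and Prkar2b, a regulatory subunit of protein kinase A, at -3.65 (SE 0.843, adjusted p = 0.0673). Of 25 transcriptional regulators, 12 were lower and 1 higher in WT, and 6 lower in KO, among them Pparg (-2.92 and -2.43), the master regulator of adipocytes, and Esrrg (-3.24 and -2.83), an oestrogen-related receptor. Of 8 genes of thyroid hormone handling, 2 were lower and 1 higher in WT and 1 lower in KO. Thrsp, a lipogenic thyroid hormone target, was at -4.91 and -4.16, and the receptor Thra at 0.35 and 0.18.

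Downstream, 32 of 33 nuclear subunits of the respiratory chain were lower in WT and 18 in KO, with medians of -1.15 and -0.74. Their summed level was 4188, 3203 and 1182 FPM in WT-SFD and 2946, 2064 and 1249 FPM in KO-SFD, against 1156 to 1327 FPM in all HFD aortae. The respiratory chain genes were thus high in the same 4 aortae as Ucp1 and no higher in the other SFD aortae than on HFD. Of 22 genes of fatty acid uptake, elongation and lipogenesis, 19 were lower and 1 higher in WT and 16 lower in KO, including Fasn, fatty acid synthase, at -5.01 and -3.84. Of 11 genes of the lipid droplet and lipolysis, 10 were lower in WT and 5 in KO, including Pnpla2, the first lipase of triacylglycerol breakdown, at -2.54 and -2.0. Among 18 further brown adipocyte markers 14 and 10 were lower, including Cox7a1 at -3.10 and -2.92. Among 8 beige markers 4 and 5 were lower, and among 13 genes of the UCP family and futile cycles 3 and 2, with Ucp3 at -4.10 and -3.53.

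The markers of fat and of other tissues moved alongside. All 16 adipocyte markers were lower on HFD in WT and 15 in KO at an unadjusted edgeR p below 0.05, with medians of -3.56 and -2.93, and so were 5 and 2 of 12 white adipocyte markers. Skeletal muscle markers were lower for 3 of 7 in WT and 1 in KO, cardiac markers for 5 of 6 in WT and 0 in KO, Schwann cell markers for 2 of 5 and 0, and endothelial markers for 2 of 7 and 1. Of 6 smooth muscle markers 0 were lower and 1 was higher in WT, with a median of 0.30, and 0 passed in KO (0.24). Of 8 fibroblast markers 0 passed in either genotype. Of 6 leucocyte markers 1 was higher in WT and 1 lower in KO. Of 2 adrenal markers 0 passed, and of 2 proximal tubule markers 1 was higher in WT and 1 lower in KO. No blood marker was tested. The part of these tissues in the levels of the members was not tested beyond the fits above.

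In the kidney the 6 genes split in another way. Levels were scaled within each tissue, so values across tissues are given side by side only. Ppargc1a was at 42.1 to 81.5 FPM (median 60.6) in the 16 kidneys, or 6.38 to 12.4 FPM per kb, against 0.704 to 4.71 FPM per kb in the aortae. Prdm16 was at 16 to 32.3 FPM (median 23.6), or 1.71 to 3.46 FPM per kb, against at least 11.5 FPM per kb in every aorta. Neither varied by more than 2.02-fold between kidneys.

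Ucp1 varied far more. It was at 0.0542, 7.85, 0 and 3.67 FPM in WT-SFD-1309, WT-SFD-1446, WT-SFD-1694 and WT-SFD-1695, and at 15.9, 0.867, 0.398 and 0.812 FPM in WT-HFD-1535, WT-HFD-1613, WT-HFD-1641 and WT-HFD-1642. In KO-SFD-1303, KO-SFD-1318, KO-SFD-1319 and KO-SFD-1451 it was at 31.7, 0.269, 0.0511 and 22.1 FPM, and in KO-HFD-1437, KO-HFD-1504, KO-HFD-1520 and KO-HFD-1558 at 28.0, 11.4, 0.380 and 0.10 FPM. Every group held both kinds of kidney: 7 of the 16 were above 3 FPM and the other 9 were at 0.867 FPM or less. Cidea was at 3.76 to 42.4 FPM in those 7 and at 1.08 FPM or less in the 9. Dio2 was at 0 to 2.07 FPM (median 0.351) with 172 counts in all, and Elovl3 had 62 counts in all and 0 in 9 kidneys.

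**Figure D5:**
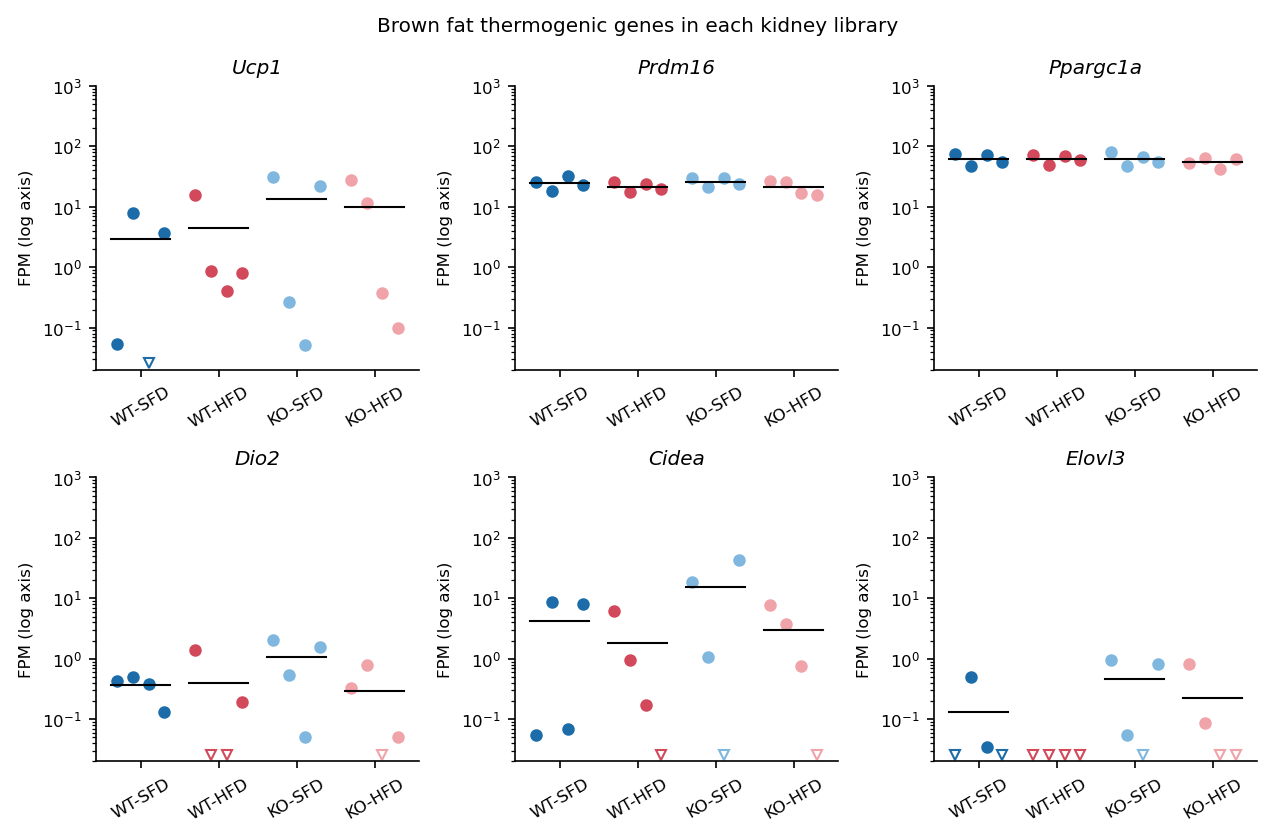
Level of each of the 6 genes in the 16 kidneys, in FPM on a log10 axis, by group; each point is 1 mouse, the black line is the group mean and an open triangle is a count of 0. Ucp1 runs from a count of 0 to 31.7 FPM with high and low kidneys in every group, while Ppargc1a stays between 42.1 and 81.5 FPM.

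Adipoq was at 5.36 to 31.7 FPM in the 7 kidneys with Ucp1 above 3 FPM and at 1.05 to 9.81 FPM in the other 9. KO-HFD-1520 had 9.81 FPM of Adipoq and 17.1 FPM of Lep, the white adipocyte hormone, with 0.380 FPM of Ucp1. Of the 3 mice sequenced in both tissues, WT-SFD-1309 had 579 FPM of Ucp1 in the aorta and 1 count in the kidney, KO-SFD-1319 had 193 FPM and 1 count, and KO-HFD-1504 had 18.2 FPM and 11.4 FPM. High Ucp1 in the aorta of a mouse thus went with almost none in its kidney in 2 of the 3.

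No kidney comparison reached a member. Elovl3 was too low to be tested, and 0 of the other 5 passed in any of the 5 comparisons with edgeR, DESeq2 or limma voom, at an adjusted or an unadjusted p of 0.05. The shares of all 15034 genes that passed were 0.964% and 8.05% for the diet in WT, 2.39% and 16.1% for the diet in KO, 0.0133% and 8.69% for KO against WT on SFD, 0% and 1.75% on HFD, and 0% and 3.35% for the interaction. For the diet, Ucp1 differed by 0.84 (SE 1.58) in log2 in WT and -0.43 (SE 1.23) in KO, and Cidea by -1.02 (SE 1.49) and -2.33 (SE 1.24). Ppargc1a differed by -0.01 (SE 0.190) and -0.18 (SE 0.191), Prdm16 by -0.22 (SE 0.199) and -0.29 (SE 0.20), and Dio2 by 0.27 (SE 1.08) and -1.72 (SE 0.931). Standard errors above 1 leave changes of several fold in Ucp1 and Cidea undetectable at this spread, whereas those of Ppargc1a and Prdm16 were 0.190 to 0.20. Between genotypes, Ucp1 differed by 2.38 (SE 1.45) on SFD and 1.11 (SE 1.35) on HFD, and Cidea by 1.98 (SE 1.19) and 0.67 (SE 1.55). Dio2 differed by 1.6 (SE 0.892) and -0.39 (SE 1.13), Ppargc1a by 0.00 (SE 0.190) and -0.16 (SE 0.191), and Prdm16 by 0.06 (SE 0.198) and -0.01 (SE 0.201). Adipocyte markers moved beside several of these differences. For the diet in KO 14 of 15 were lower on HFD, with a median of -0.61, 5 of them at an unadjusted edgeR p below 0.05 and 2 at an adjusted p of 0.05, and 14 of 17 other brown adipocyte markers were lower (median -0.31, 3 at that unadjusted limit). For the diet in WT 11 of 15 adipocyte markers were lower (median -0.20, 4 at that limit) and 10 of 17 other brown markers (median -0.01, 0 at it). On SFD the kidneys of KO mice were higher for 14 of 15 adipocyte markers, 3 of them at an unadjusted edgeR p below 0.05, with a median of 0.52, and for 13 of 17 other brown adipocyte markers, 6 of them at that limit, with a median of 0.37. On HFD 12 of 15 and 12 of 17 were higher in KO, with medians of 0.25 and 0.05, and 0 at that limit. Their part in the kidney differences was not tested.

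The kidney pattern of Ppargc1a was nearest to Fermt2 (0.116), Mbnl2 (0.118), Smchd1 (0.122), Mfap3 (0.127) and Map4k3 (0.130) by the same distance over 16 kidneys, none of which belongs to the lists used here, and Prdm16 was at rank 1045. For Ucp1 in the kidney, looked at after the values were seen, Cox8b (1.08) and Cidea (1.25) were the nearest 2 genes, Dio2 was at rank 27, Prdm16 at 3391 and Ppargc1a at 7587.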

How the data were processed

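mRNA of 14 aortae and 16 kidneys was sequenced paired-end after removal of ribosomal RNA, the aortae by a university facility and the kidneys by a commercial provider. Per the submitters' processing notes and the study's methods, reads were trimmed with cutadapt, aligned to mm10 with TopHat and counted with featureCounts. The authors deposited raw counts per gene, 1 column per mouse, without normalisation. Per the study's methods genes were annotated with biomaRt. The strand setting and the annotation file used for counting are not given in the sources used here. The study gives 4 animals per aorta group, and 3 SFD aortae per genotype were analysed here.

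Groups came from the labels. Within a tissue each library is a separate mouse, and 3 mice gave both an aorta and a kidney. Tissues were fitted apart with edgeR 4.0.16 in R 4.3.3: TMM factors, filterByExpr within groups (14796 aorta and 15034 kidney genes left), the functions glmQLFit and glmQLFTest on a design of 1 term for each group, and Benjamini-Hochberg adjustment over all genes tested. Calls were made below an adjusted p of 0.05, and the study's limit of 0.001 was counted beside it: no member passed either. Log2 levels used a prior count of 2. No pair of libraries within a group was a copy (smallest chi-square per degree of freedom 8.38 in the aorta and 10.9 in the kidney). FPM per kb used the union of a gene's exons in GENCODE vM21. The fit was tested on simulated data.

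Named genes are the 6 members, the 10 genes nearest to Ucp1 over the aortae, the 5 nearest to Ppargc1a over the kidneys, and up to 4 genes per list with the smallest p or, for markers, the 3 most abundant. Egfr was added as the targeted gene, and Adipoq, a marker of adipocytes, was singled out after its values were seen. Members and lists were chosen with earlier results of these data known. Alternatives were DESeq2 1.42.0, limma 3.58.1 voom, edgeR's legacy fit, library totals, no filter, only the groups compared, an adipocyte marker covariate, other prior counts and each library left out. Figures were drawn with matplotlib 3.10.9.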

Additional observations from a re-analysis of the deposited data

Results flagged for a closer look

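Each group of 4 libraries was searched for a sample far from the other 3 (a gap beyond Dixon's critical value for 4 samples), in 36 groups of members and libraries, and 7 were found. Chance finds about 1 in 20 among independent, normally distributed values, which is not a rate for these groups: the levels are skewed, some are at 0, and 3 of the 7 come from the same kidney. In the aorta they were Ppargc1a in WT-HFD-1448 at 5.61 FPM, in a group that spans only 5.19 to 5.61, and Dio2 in KO-HFD-1454 at 9.64 FPM, with the others up to 30.3. In the kidney, WT-HFD-1535 was far above its group for 3 members, with Ucp1 at 15.9, Cidea at 6.24 and Dio2 at 1.39 FPM. Elovl3 stood apart in the kidneys of WT-SFD-1446 at 0.502 FPM and of KO-HFD-1437 at 0.813 FPM, on 8 and 15 counts. The aorta SFD groups hold 3 mice and were not searched. No interaction of diet and genotype was called for a member.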

How the results depend on the processing

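No paired analysis was possible because, within a tissue, the groups compared hold different mice and the labels give no shared replicate numbers. The groups analysed here hold 3 or 4 mice, and depth limits Elovl3 and Dio2 in the kidney. Leaving out the 4 rich and the 2 poor SFD aortae was chosen after seeing the data. The 4 rich are also the highest of all aortae for Ucp1, Cidea, Ppargc1a and Elovl3. The 2 poor are lowest among SFD in the members besides Prdm16. Values and counts without either set are therefore a description only.

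Calls of members at an adjusted p of 0.05 for the WT diet in the aorta rose from 0 to 4 with DESeq2, 3 with library totals, 4 without the filter and 5 without the 2 poor aortae. Without the 2 poor aortae 4 were called for the KO diet and 1 for KO against WT on SFD. Members at an unadjusted p of 0.05 were 3 for the WT diet with voom (2286 of 14796 genes) or the covariate (1117 genes). For the KO diet 1 passed with voom (775 genes) or the covariate (725 genes). For KO against WT on SFD 0 passed with DESeq2 (890 genes), voom (823), only the groups compared (488 of 13723) or the covariate (1115). On HFD 2 passed with the covariate (1243 genes). For the interaction 2 passed with the covariate (975 genes) and 1 without the 2 poor (1192 of 15279). Where no total is given, 14796 genes were tested.

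Genes called in the aorta for the WT diet were 666 with DESeq2, 312 with library totals, 347 without the filter, 1 with the covariate or without the 4 rich, and 2111 without the 2 poor. For the KO diet they were 8 with DESeq2, 2 with the covariate or without the 4 rich, and 636 without the 2 poor. For KO against WT on SFD they were 21 with DESeq2, 4 with only the groups compared, 22 with the covariate, 2 without the 4 rich and 20 without the 2 poor, and on HFD 40, 27, 30, 29 and 20. The interaction had 2 with DESeq2. In the kidney DESeq2 called 263 for the WT diet, 695 for the KO diet (235 with only the groups compared), 26 for KO against WT on SFD (0 with voom or library totals, 5 without the filter), and 1 on HFD (also 1 with the legacy fit or without the filter) and for the interaction.

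Per adipocyte marker FPM, 0 of the 4 rich aortae were among the 4 highest for Ppargc1a and 0 for Dio2, against 4 and 3. As a ratio to Adipoq, also chosen after seeing the data, they were 1 for Ucp1, 1 for Cidea, 0 for Ppargc1a, 0 for Dio2 and 2 for Elovl3. With a prior count of 0.5 the spread ranks were 5 (Ucp1), 118 (Cidea), 844 (Dio2) and 2 (Elovl3) in the aorta, and 2, 1 and 36 (Ucp1, Cidea, Dio2) in the kidney. By Pearson's r, 4 of the 10 genes nearest to Ucp1 were shared.

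Directions reversed with the covariate for the WT diet in Ucp1 (1.86) and Dio2 (0.65), for the KO diet in Ucp1 (2.01), Ppargc1a (0.14), Dio2 (0.58) and Elovl3 (1.36), for KO against WT on SFD in Ucp1 (0.32), Cidea (0.41) and Dio2 (0.08), on HFD in Ucp1 (0.47), Cidea (0.47) and Dio2 (0.01), and for the interaction in Dio2 (-0.07). Without the 4 rich they reversed for the WT diet in Ucp1 (2.41), Cidea (0.34) and Dio2 (1.24), for the KO diet in Ucp1 (4.30), Cidea (0.43), Ppargc1a (0.39) and Dio2 (0.75), for KO against WT on SFD in Dio2 (0.29) and for the interaction in Dio2 (-0.49). In the kidney, voom reversed Dio2 for the WT diet (-1.43) and on HFD (0.45) and Ucp1 for the KO diet (0.10), and library totals Ppargc1a for the WT diet (0.01). Causes were not tested.

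Leaving out 1 library gave, in the aorta, 0 to 5 members and 0 to 1907 genes called for the WT diet (the most without WT-SFD-1445), 1 to 5 members at an unadjusted p of 0.05 and 0 to 15 genes called for the KO diet, 0 to 1 members called, 0 to 2 at an unadjusted p and 5 to 61 genes for KO against WT on SFD, 6 to 20 genes on HFD, and 0 to 2 members at an unadjusted p for the interaction. Genes at an unadjusted p of 0.05 were then 466 to 1810 for the KO diet, 780 to 2433 for KO against WT on SFD and 500 to 1570 for the interaction. Without WT-SFD-1445 the Elovl3 difference of KO against WT on SFD was -3.16 (edgeR adjusted p = 0.0487). Elovl3 had 0 counts in that library and passed the filter only through the rich SFD aortae, so this call does not count as support. In the kidney, leaving out 1 library gave 0 to 2 members at an unadjusted p and 203 to 422 genes called for the KO diet. For KO against WT on SFD it gave 0 to 2 and 0 to 5, and on HFD 0 to 1 genes called. Genes at an unadjusted p of 0.05 were 1788 to 2845 for the KO diet and 752 to 1832 for KO against WT on SFD. Log2 differences that changed sign ran, in the aorta, from -0.40 to 0.38 (Dio2, KO against WT on HFD) and, for the interaction, -0.03 to 2.37 (Ucp1), -0.20 to 1.53 (Cidea) and -0.18 to 0.82 (Dio2). In the kidney they ran for the WT diet from -1.88 to 1.96 (Ucp1), -0.12 to 0.10 (Ppargc1a) and -2.26 to 0.68 (Dio2), for the KO diet from -1.66 to 0.45 (Ucp1), for KO against WT on SFD from -0.06 to 0.21 (Prdm16), on HFD from -0.11 to 3.85 (Ucp1), -0.24 to 3.02 (Cidea), -0.13 to 0.11 (Prdm16) and -1.67 to 2.14 (Dio2), and for the interaction from -2.49 to 1.45 (Ucp1), -2.22 to 1.03 (Cidea), -0.22 to 0.05 (Prdm16) and -3.27 to 0.53 (Dio2).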

Other observations

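Among the brown adipocyte markers, Cox8b, a cytochrome oxidase subunit, separated the kidneys as Ucp1 did. It was at 8.66 and 6.27 FPM in WT-SFD-1446 and WT-SFD-1695, at 6.20 FPM in WT-HFD-1535, at 16.5 and 32.2 FPM in KO-SFD-1303 and KO-SFD-1451, and at 10.7 and 5.49 FPM in KO-HFD-1437 and KO-HFD-1504. In the other 9 kidneys it was at 0.0503 to 1.08 FPM. Not every brown adipocyte marker did so. Cox7a1 was at 17.2 to 32.4 FPM in the kidneys just named and at 22.5 to 39.7 FPM in the other 9. The summed brown adipocyte markers were at 4255 to 5801 FPM and at 4839 to 5827 FPM. Kdr, an endothelial receptor, had an HFD minus SFD difference in the aorta of -2.84 in log2 (SE 0.723, edgeR adjusted p = 0.0686) in WT and of -2.66 (SE 0.760, adjusted p = 0.526) in KO, whereas Pecam1, another endothelial gene, differed by 0.12 (SE 0.154) in WT.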
